A study of Mus musculus with 6 samples.

Results

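The genes described here are 7 members of the mouse Ifi200 family, Ifi203, Ifi204, Ifi205, Ifi207, Ifi209, Ifi211 and Mndal. They were taken by name, and all 7 were found among the 14574 genes listed in at least 1 of 6 RNA sequencing libraries. The libraries came from bone marrow-derived macrophages, that is, macrophages that M-CSF, their growth factor, drives marrow cells to become. One group, labelled Cd28 KO, came from mice labelled as knockouts of Cd28, the surface receptor through which T cells receive costimulation, and the other, labelled WT, from C57BL/6J wild-type mice. Each group had 3 libraries. Mice of both groups were 6 to 10 weeks old, and femoral marrow was cultured for 7 days in DMEM with 10% fetal calf serum, 2-mercaptoethanol and human M-CSF (25 ng/ml, renewed every 2 days), with no other treatment. The targeted part of Cd28, the strain in which the allele was made, the sex of the mice and the pooling of animals are not stated in the labels. No label says that the numbered samples of a group were separate animals, so p-values measure only the spread between these samples. That spread may be technical between replicates 1 and 2, while replicate 3 alone listed Y-linked genes, as given below.

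The Ifi200 genes encode PYHIN proteins, most of which pair a pyrin domain, a protein interaction module, with 1 or 2 HIN-200 domains that can bind DNA. They lie side by side in a single cluster on chromosome 1, where repeated duplication has left copies with closely similar sequence and a gene content that varies between inbred strains. Many are induced by interferon, and members have been tied to the sensing of cytosolic DNA: through the adaptor STING and the kinase TBK1 to the production of type I interferon, and, for the family's best known gene Aim2, through the adaptor ASC to the caspase-1 inflammasome. In macrophages these proteins are part of the innate response to viral and bacterial DNA.

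The cluster, from the first to the last family gene, spanned 682.2 kb of chromosome 1 (GRCm38, 173349547 to 174031755). The 7 genes lay within it in the order Ifi209, Ifi207, Ifi204, Mndal, Ifi211, Ifi203 and Ifi205. By GRCm38 coordinates, Ifi209 (Entrez 236312) ran from 173630859 to 173647928, Ifi207 (226691) from 173723424 to 173741831, Ifi204 (15951) from 173747293 to 173767069 and Mndal (100040462) from 173857215 to 173880382. Ifi211 (381308) ran from 173896339 to 173913087, Ifi203 (15950) from 173920400 to 173942866 and Ifi205 (226695) from 174011998 to 174031755. Ifi209 was on the plus strand and the other 6 on the minus strand, and their longest coding transcripts had 7 to 10 exons. The sequence around each start site is shown because the genes are known as interferon-induced and because it gives a view of how alike the copies are. RefSeq promoters (GRCm38.p6, 250 bases before to 50 after the start) were at hand for 6 of the 7 genes, Ifi204 being the one without an entry. They were searched on both strands for 1 motif, GAAANNGAAA, the core of the interferon-stimulated response element (ISRE). Each stretch below is 60 bases, given 5′ to 3′ on the gene's own strand, with the ISRE core in capitals. For Ifi209, which had no exact match, the capitals mark the nearest match, with 1 mismatch.
Ifi203: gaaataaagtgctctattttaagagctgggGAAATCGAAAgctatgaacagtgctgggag
Mndal: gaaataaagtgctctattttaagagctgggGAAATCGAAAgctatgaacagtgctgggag
Ifi207: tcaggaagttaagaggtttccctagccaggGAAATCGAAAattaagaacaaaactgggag
Ifi211: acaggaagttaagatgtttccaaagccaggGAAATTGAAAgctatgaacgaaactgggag
Ifi205: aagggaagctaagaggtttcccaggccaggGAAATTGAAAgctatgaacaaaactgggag
Ifi209: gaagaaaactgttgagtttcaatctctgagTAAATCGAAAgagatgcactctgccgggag

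The stretches lie at chr1:173942498-173942557 for Ifi203, chr1:173880194-173880253 for Mndal, chr1:173741821-173741880 for Ifi207, chr1:173913054-173913113 for Ifi211, chr1:174031860-174031919 for Ifi205 and chr1:173630750-173630809 for Ifi209 (plus strand), the others being on the minus strand (GRCm38). The motif was present for 5 of the 6 genes (83.3%), against 1079 of 27025 genes with a RefSeq promoter (3.99%). It was present for 24 of 40 interferon-stimulated genes from a list used further on (60.0%). Counted by promoter window, 3.44% of 32851 held it. Ifi203 and Mndal had 2 annotated starts each, and the motif was in 1 of the 2 windows of Ifi203 and in both of Mndal. In the stretches shown, the motif's first base lay at -41 from the start in Ifi207, -37 in Ifi211, -36 in Mndal and -35 in Ifi203. It lay at -134 in Ifi205, whose promoter held 2 matches, and the near match of Ifi209 lay at -79. The other window of Mndal held 1 match, at -54 on the opposite strand. The 60 bases of Ifi203 and Mndal were identical. Those of Ifi205 and Ifi211 shared 53 positions (88.3%), and those of Ifi207 and Ifi211 shared 51 (85.0%), while Ifi203 shared 36 to 39 with these 3 genes. A match describes letters and is neither a bound site nor a cause of any level given here.

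Levels are in FPKM, which counts fragments per kilobase of a gene's transcript and scales them to the library's fragments, so that levels of different genes can be set beside each other per length. FPKM carries no read number, and the labels give none. Before the comparison, 2 features of the libraries bear on every result. First, Cd28 itself was still listed in all libraries labelled Cd28 KO, at 25.7, 24.2 and 26.9 FPKM, against 38.2, 30.1 and 51.1 FPKM in WT. The labelled group was lower without overlap, as were 2.87% of tested genes, at a log2 difference of -0.59 ± 0.19 (SE). Cd28 itself was not called in the test across all genes, at a limma adjusted p of 0.9995. A value summed over the gene cannot show whether the targeted part was lost. Second, replicate 3 stood apart in both groups. On principal component 1 (73.8% of the variance) its libraries lay at 34.8 and 36.1, with the other 4 between -18.2 and -17.4. The Y-linked gene Eif2s3y was at 39.1 FPKM in Cd28 KO replicate 3 and 31.8 FPKM in WT replicate 3 and was not listed in the other 4 libraries. Other Y-linked genes followed the same pattern, so the spread within each group includes this difference. The medians of the members, the neighbouring genes and the pathway lists, and the ratio of summed FPKM, are therefore also given for replicates 1 and 2 alone.

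In these macrophages 6 of the 7 genes were readily measured. Averaged over the 6 libraries, Ifi207 stood at 104.5 ± 15.0 FPKM (SD, n = 6), Ifi204 at 101.1 ± 20.6, Mndal at 84.7 ± 19.7, Ifi211 at 60.2 ± 11.6, Ifi203 at 42.8 ± 7.67 and Ifi209 at 33.3 ± 9.69. Ifi205 was far lower, at 1.06 ± 0.418 FPKM. Among the first 6, the ranges over libraries of neighbours in this order overlapped. Ifi207 was above Ifi204 in 5 of 6 libraries and Ifi204 above Mndal in 3 of 6, so the order of the leading 3 was not stable, whereas Mndal exceeded Ifi211, Ifi211 exceeded Ifi203, and Ifi203 exceeded Ifi209 in all 6. Between Ifi209 and Ifi205 lay 3 other family genes, Aim2, Ifi208 and Ifi213, at 17.2, 12.2 and 5.24 FPKM.

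**Figure D1:**
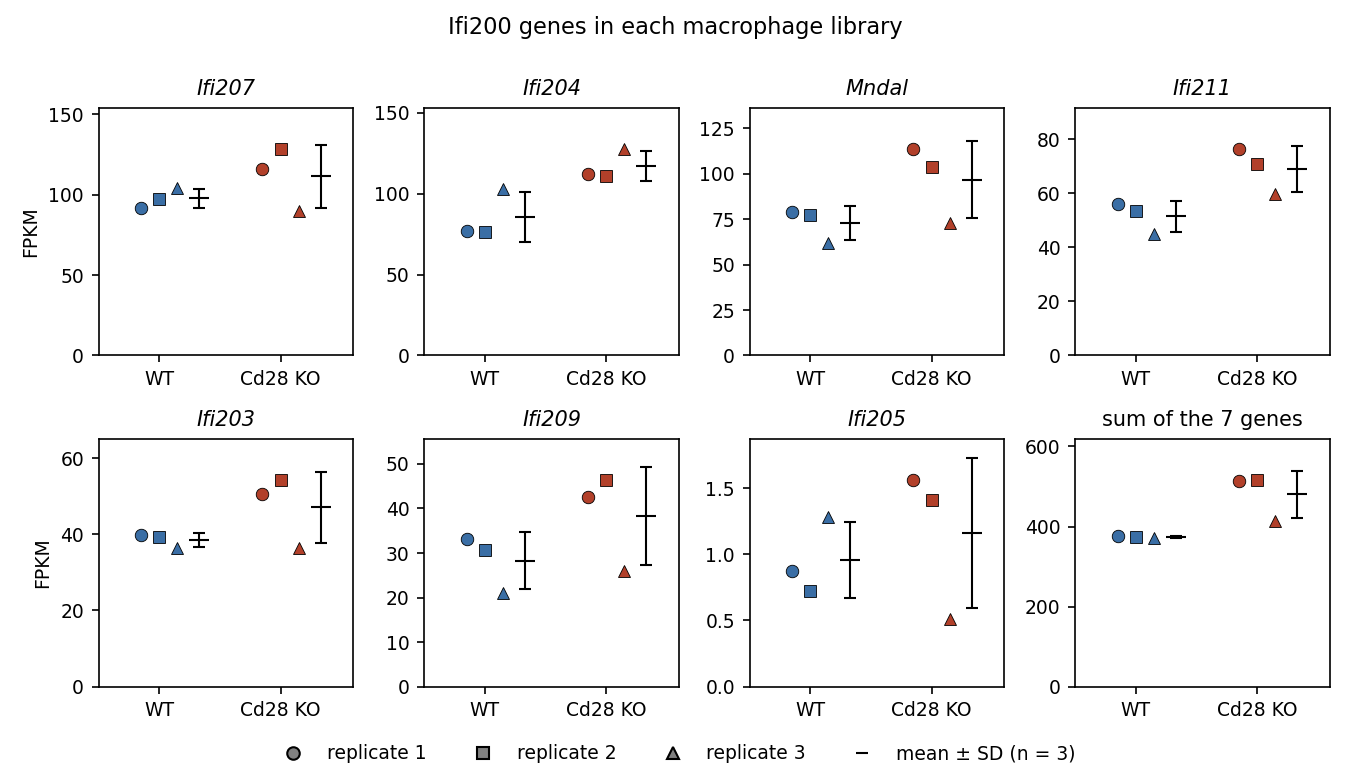
FPKM of each of the 7 genes, and of their sum, in WT (left of each panel) and Cd28 KO (right), with 1 point per library, a shape per replicate number, and mean ± SD (n = 3). The groups do not overlap for Ifi204, Ifi211 and the sum, and Ifi205 sits near 1 FPKM in both groups.

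All 7 genes had higher means in Cd28 KO than in WT, by ratios of 1.14 to 1.37, and none passed the test across all genes. The log2 differences, on the scale log2(FPKM + 1), ran from 0.12 to 0.46 with a median of 0.39, while the median of all 10172 tested genes was -0.0031. Leaving out WT replicate 3 lowered the median of the 7 to 0.23, and leaving out Cd28 KO replicate 2 lowered it to 0.25. By limma with Benjamini-Hochberg adjustment, 0 of the 7 were called at an adjusted p below 0.05, with 0.0197% of all tested genes called. At an unadjusted p below 0.05 there were 2 of the 7, Ifi204 and Ifi211, against 2.49% of all tested genes. For these same 2, every Cd28 KO value lay above every WT value, which was so for 3.84% of tested genes. No member was lower without overlap, against 2.87% of tested genes. All 7 passed the filter of a mean of at least 1 FPKM. Ifi205, at a mean of 0.957 FPKM in WT, would not have passed on its WT libraries alone.

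Ifi204 encodes p204, a nuclear and cytoplasmic DNA-binding protein often treated as a mouse counterpart of human IFI16. It was at 112, 111 and 128 FPKM in Cd28 KO replicates 1 to 3 and at 76.7, 76.6 and 103 FPKM in WT. The lowest Cd28 KO value lay above the highest WT value, and replicate 3 was the highest library of each group. The means were 117 ± 9.33 and 85.4 ± 15.3 FPKM (SD, n = 3 each), a ratio of 1.37 and a log2 difference of 0.46 ± 0.14 (SE), at a limma adjusted p of 0.9995. In replicates 1 and 2 alone the difference was 0.53, and Ifi204 was the 1 member of the 7 that passed, at a limma adjusted p of 0.0322 where 0.698% of all tested genes were called. That fit left 2 libraries per group.

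Ifi211 was the other member whose groups did not overlap. It was at 76.4, 70.8 and 59.7 FPKM in Cd28 KO and 55.9, 53.4 and 45.0 FPKM in WT, with replicate 3 lowest in both groups. The means were 69.0 ± 8.48 and 51.4 ± 5.70 FPKM, with a log2 difference of 0.42 ± 0.13 (SE) and a limma adjusted p of 0.9995. The pairs of same-numbered libraries differed by 0.44, 0.40 and 0.40 on the log2 scale, the narrowest spread among the 7.

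Mndal, named for its likeness to human myeloid cell nuclear differentiation antigen, was at 114, 104 and 72.9 FPKM in Cd28 KO and 79.2, 77.0 and 62.0 FPKM in WT. Replicates 1 and 2 of Cd28 KO lay above all WT libraries, while Cd28 KO replicate 3 lay between WT values. Its log2 difference was 0.39 ± 0.19 (SE). Ifi209 was at 42.6, 46.4 and 25.9 FPKM in Cd28 KO and 33.1, 30.7 and 21.0 FPKM in WT. The same arrangement held, with Cd28 KO replicate 3 below WT replicates 1 and 2, and the log2 difference was 0.41 ± 0.26. Ifi203, linked in other work to STING-dependent sensing of retroviral DNA, was at 50.6, 54.2 and 36.5 FPKM in Cd28 KO and 39.8, 39.2 and 36.4 FPKM in WT. Its replicate 3 libraries differed by 0.0027 on the log2 scale, against 0.34 and 0.46 for replicates 1 and 2. The difference over all libraries was 0.27 ± 0.16.

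Ifi207, with the highest mean over the 6 libraries though below Ifi204 in Cd28 KO replicate 3, and Ifi205, with the lowest, differed in direction between the pairs. Ifi207 was at 116, 128 and 89.9 FPKM in Cd28 KO and 91.8, 97.2 and 104 FPKM in WT. Cd28 KO replicate 3 was the lowest of the 6 libraries and WT replicate 3 the highest of its group, and the log2 difference was 0.18 ± 0.14 (SE). Ifi205, whose protein has been described as a regulator of the gene for ASC in macrophages, was at 1.56, 1.41 and 0.51 FPKM in Cd28 KO and 0.87, 0.72 and 1.28 FPKM in WT. The groups overlapped fully, the log2 difference was 0.12 ± 0.24, and without Cd28 KO replicate 1 it was -0.026.

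By pair, 5 of the 7 genes (Ifi203, Ifi204, Ifi209, Ifi211 and Mndal) were higher in Cd28 KO in all 3 same-numbered pairs, against 15.0% of tested genes. Whether the numbers reflect a shared culture or day is not given in the labels. A limma fit with the replicate block called 0 of the 7, with 0.177% of tested genes called, and the lowest adjusted p among them was 0.183, for Ifi204. At an unadjusted p below 0.05 the replicate block gave 5 of the 7 (Ifi203, Ifi204, Ifi209, Ifi211 and Mndal), against 7.89% of tested genes. On the TPM scale, where each library's values are rescaled to the same sum, 0 of the 7 were higher without overlap (2.35% of tested genes) and 4 of the 7 were higher in all pairs (8.93%), Ifi203 no longer among them. In replicates 1 and 2 alone the median difference of the 7 was 0.47.

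**Figure D2:**
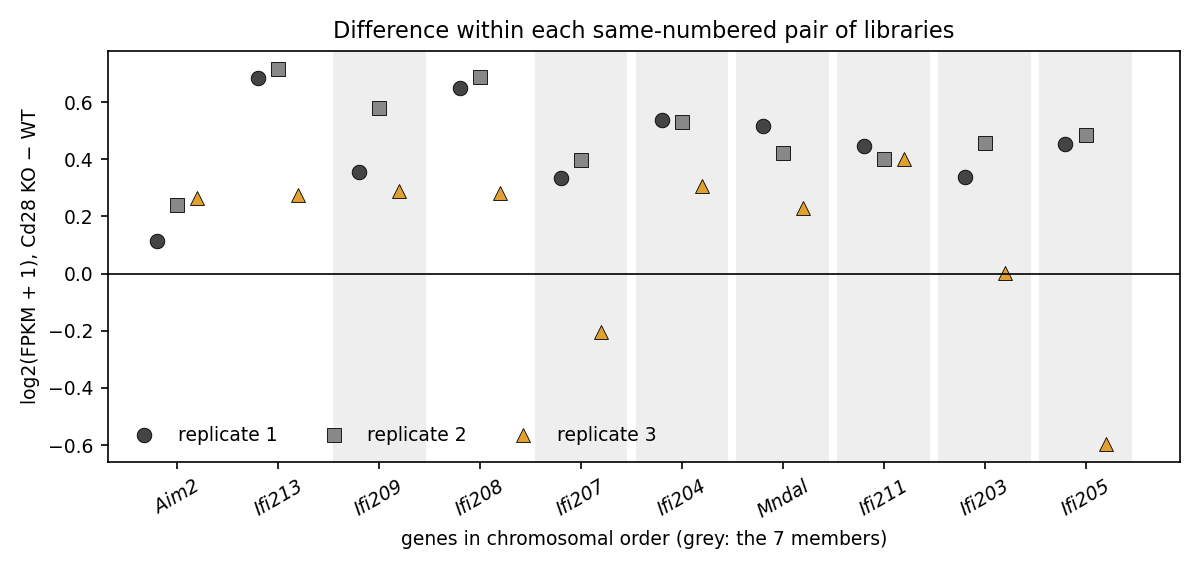
Log2 difference, Cd28 KO minus WT on log2(FPKM + 1), within each same-numbered pair of libraries, for the family genes in chromosomal order, with the 7 members shaded grey and 1 marker per pair. In replicate 3, Ifi207 (-0.20) and Ifi205 (-0.59) lie below 0, whereas all 7 members lie above 0 in replicates 1 and 2.

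The replicate 3 libraries also differed in how the family was composed. In both groups Ifi204 was higher in replicate 3 than in replicates 1 and 2, at 1.15 times their mean in Cd28 KO and 1.34 times in WT. Ifi203, Ifi209, Ifi211 and Mndal were lower there in both groups, with Ifi209 at 0.582 and 0.660 times the mean of replicates 1 and 2. As a share of the 7 genes' summed FPKM, Ifi204 made up 30.9% and 27.7% in the replicate 3 libraries of Cd28 KO and WT, against 20.3% to 21.8% in the other 4. Sex-linked genes moved with these libraries, as given above, and their part in the composition was not tested.

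Because the copies are alike, the level of a single gene depends on how reads were shared out. RSEM, which the submitters used, divides reads that match several genes by estimation. Of the 50-base words in the transcripts of Ifi211, 72.8% also occurred in transcripts of other family genes, 44.7% in Ifi205 and 30.1% in Ifi204. The share was 33.4% for Ifi209, all of it with Ifi214, then 19.2% for Ifi204, 18.6% for Ifi205, 17.7% for Mndal and 12.2% for Ifi203, and it was lowest for Ifi207, at 5.39%. Words shared with genes outside the family made up at most 2.62%. The values of Ifi211 in particular are uncertain on this account, and the sum over the 7 genes depends less on the division. That sum was 513, 516 and 413 FPKM in Cd28 KO and 377, 375 and 372 FPKM in WT. Every Cd28 KO library lay above every WT library, and the ratio of the means (481 ± 58.5 and 375 ± 2.43 FPKM) was 1.28, with 1.36, 1.38 and 1.11 in the 3 pairs. The ratio was 1.37 in replicates 1 and 2 alone. As a percentage of all FPKM of the library, the sum was 0.0919, 0.0994 and 0.0717 in Cd28 KO and 0.0702, 0.0700 and 0.0729 in WT. On that scale the replicate 3 pair went the other way, at a ratio of 0.983.

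Of the other family genes, Ifi213 was higher in every Cd28 KO library, at 6.39, 7.17 and 5.73 FPKM against 3.60, 3.98 and 4.56 FPKM in WT, a log2 difference of 0.56 ± 0.15 (SE). Ifi208 was at 17.6, 17.6 and 9.39 FPKM in Cd28 KO and 10.8, 10.5 and 7.55 FPKM in WT, with overlapping groups and a difference of 0.54 ± 0.26. Neither passed over all libraries (limma adjusted p = 0.9995), and both passed in replicates 1 and 2 alone, at limma adjusted p of 0.045 for Ifi213 and 0.0273 for Ifi208. Aim2, the inflammasome sensor, was at 20.8, 18.2 and 16.1 FPKM in Cd28 KO and 19.2, 15.3 and 13.3 FPKM in WT. Its groups overlapped and its difference was 0.21 ± 0.17. Ifi214 stayed at or below 0.30 FPKM and was not tested, and Ifi202b, Ifi206 and Ifi203-ps were not listed in any library.

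Genes around the cluster were examined to see whether they differed in the same way. Within 2 Mb of its edges, 27 genes outside the family were tested. None of those tested lay directly beside it. The nearest before the cluster, Dusp23, ended at 172632974, and the nearest after it, Fh1, began at 175601378. Only Fh1, Opn3 and Chml lay after the cluster. Log2 differences of the 27 ran from -0.38 to 0.22 with a median of -0.01, and 13 were positive and 14 negative. Limma called 0, with 0.0197% of all tested genes called, and 0 had an unadjusted p below 0.05, against 2.49%. None was higher in Cd28 KO without overlap, against 3.84% of tested genes. Igsf8, an immunoglobulin superfamily gene, was lower without overlap, as were 2.87% of tested genes. It was at 36.8, 38.2 and 38.7 FPKM in Cd28 KO and 42.3, 50.4 and 40.9 FPKM in WT. Shares of that size leave few genes to be found among 27, so these low counts say little. Slamf8 (-0.38) and Fh1 (0.22) marked the ends of the range. In replicates 1 and 2 alone the median of the 27 was -0.02, and Slamf8 was at -0.70. Limma called 0 of the 27 there, with 0.698% of all tested genes called. Cd28 lies on the same chromosome, 112.6 Mb from the cluster.

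**Figure D3:**
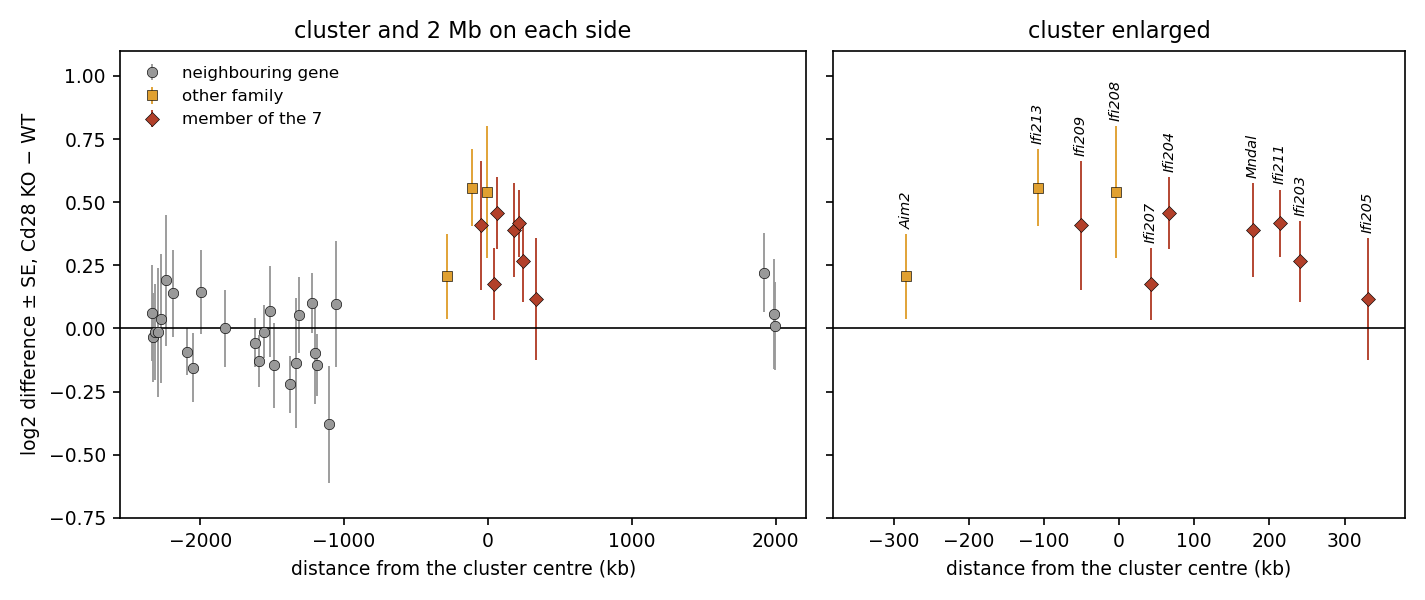
Log2 difference ± SE, Cd28 KO minus WT, of the tested genes against distance from the centre of the Ifi200 cluster in kb, for the cluster with 2 Mb on each side (left) and the cluster enlarged (right). The family genes lie between 0.12 and 0.56, and the 27 neighbours between -0.38 and 0.22.

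Lists of the DNA sensing and interferon pathways were drawn up to set the 7 genes beside their partners. Among 15 tested DNA sensors other than the 7, 10 were positive, with a median log2 difference of 0.01. Limma called 0 of them, with 0.0197% of all tested genes called. Cgas, which makes the second messenger that activates STING, was at 6.02, 5.87 and 3.29 FPKM in Cd28 KO and 4.83, 5.52 and 4.04 FPKM in WT, a difference of 0.04 ± 0.23 (SE). Zbp1, a sensor of left-handed nucleic acid and itself induced by interferon, had the largest difference of the list, at 70.2, 73.0 and 87.0 FPKM against 51.3, 45.3 and 51.6 FPKM. All its Cd28 KO libraries lay above all WT libraries, and its difference was 0.62 ± 0.12, at a limma adjusted p of 0.742. Polr3c, a subunit of RNA polymerase III, differed by 0.21 and was also higher without overlap, and Dhx9, a helicase, differed by -0.27 and was lower without overlap. Of the 15 sensors, 2 were higher and 1 was lower without overlap, against 3.84% and 2.87% of tested genes. In replicates 1 and 2 alone the median of these sensors was 0.14.

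Downstream of the sensors, 11 STING adaptors and kinases had a median difference of 0.06, with 7 positive and 0 called. Sting1 was at 41.7, 45.0 and 35.7 FPKM in Cd28 KO and 40.5, 42.6 and 33.9 FPKM in WT, a difference of 0.06 ± 0.14 (SE). Irf7, the transcription factor that amplifies type I interferon and is itself interferon-induced, was at 194, 208 and 258 FPKM against 140, 126 and 205 FPKM. WT replicate 3 lay within the Cd28 KO values, and the difference was 0.51 ± 0.20. Ikbke and Tbk1, the kinases that act on interferon regulatory factors, differed by 0.40 and 0.17. Of 6 inflammasome partners, 5 were positive, with a median of 0.27. Casp1, the inflammasome protease, was at 75.4, 70.4 and 62.4 FPKM against 58.6, 59.3 and 56.5 FPKM, higher without overlap, at 0.25 ± 0.10. Pycard, which encodes ASC, differed by 0.29 and Il18 by 0.33, both with overlapping groups. The 6 tested nucleases that clear DNA had a median of 0.05, with Rnaseh2c at 0.17, Trex1 at 0.15 and Rnaseh2a at -0.11. Over all libraries, none of these lists had a called member, with 0.0197% of all tested genes called. With replicates 1 and 2 alone, the medians were 0.06 for STING adaptors and kinases, 0.28 for inflammasome partners and -0.04 for nucleases. Casp1 was the 1 inflammasome partner of 6 that was higher without overlap, against 3.84% of tested genes. Of the STING adaptors and kinases, 1 of 11 was lower without overlap, against 2.87%.

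None of 8 interferon genes was listed in any library. The 14 interferon receptors and signal transducers had a median difference of 0.02, with 9 positive. Limma called 0 of them, with 0.0197% of all tested genes called. Their median was 0.09 in replicates 1 and 2 alone. Irf9, the DNA-binding subunit of the complex that acts on the ISRE, differed by 0.16 and was higher without overlap. Ifnar1, a chain of the type I interferon receptor, was lower without overlap, at 18.4, 18.2 and 17.7 FPKM against 20.4, 20.4 and 23.2 FPKM, a difference of -0.22 ± 0.11 (SE). Usp18, a brake on the receptor, differed by 0.39 ± 0.39, with overlapping groups. Of the 14 genes, 1 was higher and 1 lower without overlap, against 3.84% and 2.87% of tested genes.

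The interferon-stimulated genes, a class to which the 7 genes are themselves known to belong, had the median nearest to theirs among the pathway lists. Of 50 tested genes, 49 were positive, with a median log2 difference of 0.32, and Parp14 (-0.07) was the exception. The median was 0.28 on the TPM scale, where 49 were again positive, and 43 were positive without WT replicate 3. By limma 0 were called over all libraries, with 0.0197% of all tested genes called. An unadjusted limma p below 0.05 was found for 20, against 2.49% of all tested genes. Higher without overlap were 18 (36.0%), against 3.84%. With the replicate block 1 was called, Isg15, at a limma adjusted p of 0.038, where 0.177% of tested genes were called. When the replicate block was combined with median centring or quantile normalization, 0 were called. In replicates 1 and 2 alone, where 0.698% of all tested genes were called, 8 passed: Zbp1, Irf7, Ifit2, Isg15, Oas2, Ifi44, Xaf1 and Phf11d. The median of the list in those libraries was 0.41. Isg15, a ubiquitin-like protein, was at 125, 121 and 110.0 FPKM in Cd28 KO and 87.3, 71.0 and 66.6 FPKM in WT, a difference of 0.66 ± 0.13 (SE) with a limma adjusted p of 0.742 when no block was fitted. Xaf1 was at 23.1, 22.8 and 22.7 FPKM against 15.7, 15.6 and 13.6 FPKM, a difference of 0.58 ± 0.11. The list was drawn up with earlier results of these libraries known, so its direction is not independent evidence.

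**Figure D4:**
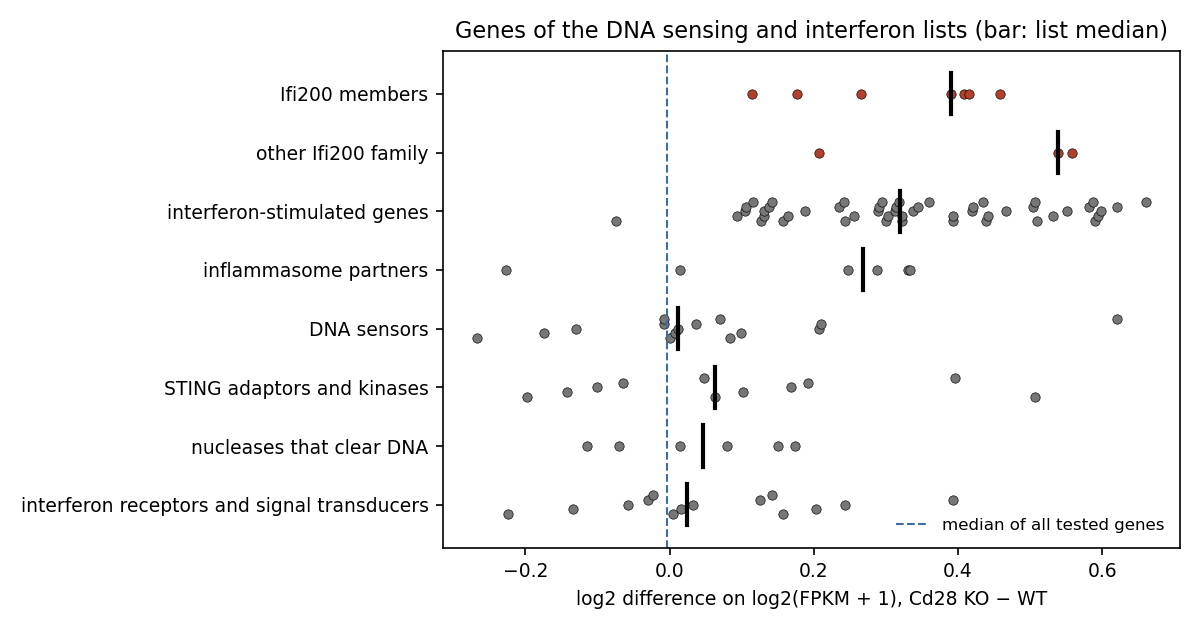
Log2 difference on log2(FPKM + 1), Cd28 KO minus WT, for each tested gene of the family and of the pathway lists, with 1 point per gene, a black bar at each list's median and a dashed line at the median of all tested genes. The 7 members (median 0.39) and the interferon-stimulated genes (0.32) lie to the right of 0, except Parp14, while DNA sensors, STING adaptors and kinases, nucleases and interferon receptors have medians of 0.01 to 0.06 and the 6 inflammasome partners one of 0.27.

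The mean profile of the 7 genes, each centred on its own mean of log2(FPKM + 1), was 0.30, 0.31 and -0.14 in Cd28 KO replicates 1 to 3 and -0.12, -0.16 and -0.20 in WT. Among 10165 other tested genes, the 5 nearest to it over the 6 libraries, by root mean square log2 distance, were Nfxl1 (0.0444), Herc6 (0.0461), Mtg2 (0.0495), Mrpl47 (0.0510) and Ccr2 (0.0571). Herc6 is on the list of interferon-stimulated genes. Of the members themselves, Ifi203 was nearest to their mean profile, at 0.0489, and Ifi204 farthest, at 0.275.

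Marker genes of the cultures were checked against the labelled cell type. All 8 macrophage markers were listed, with a sum of 14779 to 16869 FPKM in Cd28 KO and 14104 to 14783 FPKM in WT. Most of that sum was Lyz2, at 9652 to 12716 FPKM, with a ratio of Cd28 KO to WT means of 1.16. The ratio was 0.91 for Cd68, 0.92 for Itgam and 0.96 for Adgre1. It was 1.01 for Cd14, 1.02 for Csf1r, 1.07 for Mertk and 1.08 for Fcgr1, so the markers did not move together. Markers of 5 other cell types summed to at most 8.27 FPKM in any library. The neutrophil and granulocyte precursor list reached that value, with 3.46 to 8.27 FPKM in Cd28 KO and 2.03 to 6.10 FPKM in WT, and all 5 of its markers were listed. S100a8 and S100a9 made up most of those sums, and Ly6g and Elane stayed at or below 0.12 FPKM. For T cells, 5 of 6 markers were listed, with sums of 3.88 to 6.91 and 4.40 to 7.20 FPKM, and Cd3d was not listed. Most of the T cell sum was Cd4, at 2.95 to 6.42 FPKM. Cd3e and Cd3g were listed in WT replicate 3 alone, at 0.07 and 0.21 FPKM. B cell markers summed to 0.67 to 1.14 and 0.73 to 1.22 FPKM, dendritic cell markers to 3.34 to 4.80 and 2.27 to 5.0 FPKM, and fibroblast markers stayed at or below 0.17 FPKM. In cultures measured in bulk, more cells of a type and more RNA per cell cannot be told apart.

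**Figure D5:**
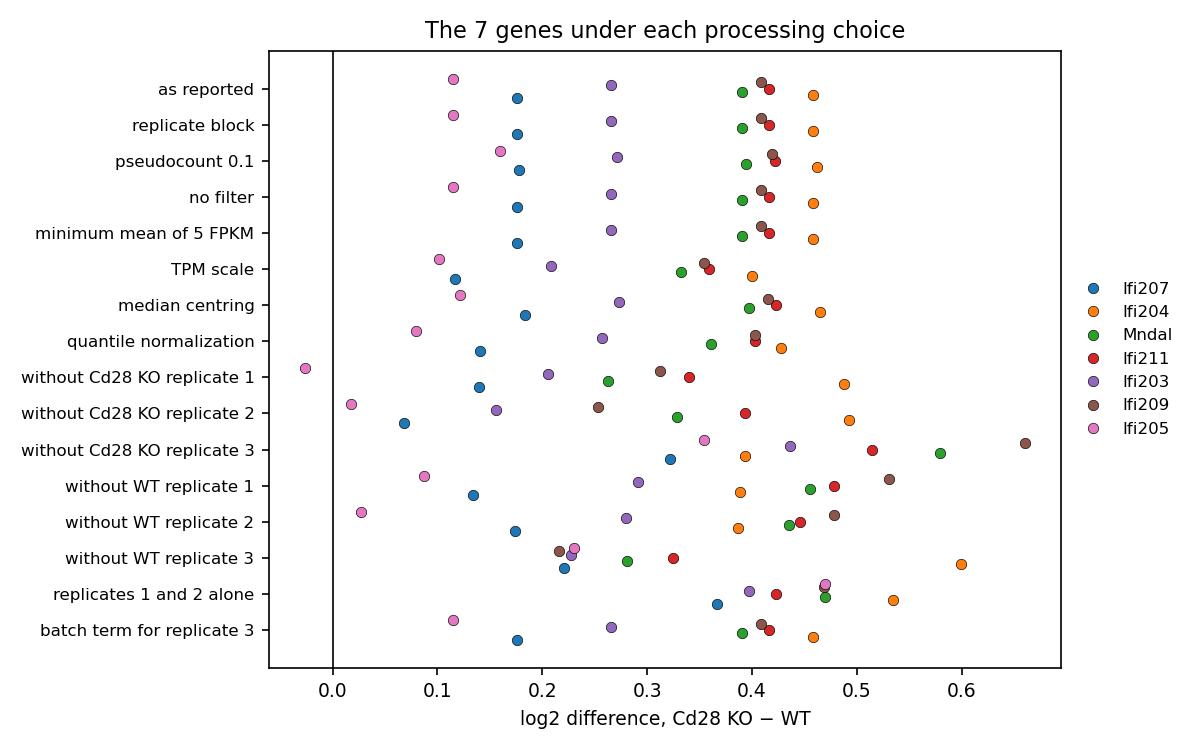
Log2 difference, Cd28 KO minus WT, of each of the 7 genes (colours) under each processing choice (rows). With the exception of Ifi205 without Cd28 KO replicate 1, at -0.026, the plotted values lie above 0, and those of Ifi204 range from 0.39 to 0.60.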

How the data were processed

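RNA was sequenced from 3 Cd28 KO and 3 WT macrophage cultures, grouped by their titles. The deposited values are FPKM, with a single value for each gene in a library. The authors used Bowtie, RSEM and build GRCm38, per the submitters' processing notes, with no versions in the sources used here. Genes missing from a library's file were set to 0, and the lowest listed value was 0.01. Each library listed 12768 to 13327 genes, with FPKM sums of 510937 to 576313. Of 14574 Entrez numbers, 14551 matched RefSeq and 23 did not. Read depth is not given, so no counting interval could be formed.

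Genes that averaged 1 FPKM or more (10172) were tested on log2(FPKM + 1) with limma 3.58.1 in R 4.3.3 (empirical Bayes with trend), without a block, two-sided. Calls required an adjusted p below 0.05 (Benjamini-Hochberg over all tested genes). This scale understates the change of low genes. Ratios are of mean FPKM. Sequence words of 50 bases were compared between GENCODE M21 transcripts. Python 3.11.15, pandas 2.3.3, NumPy 2.4.6 and Matplotlib 3.10.9 were used.

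To see if replicate numbers pair the libraries, deviations from the group means were compared, and these correlated at 0.752, 0.505 and 0.783 for same-numbered libraries. Each was above the cutoff of 0.1. Because replicate 3 stood apart in both groups, replicates 1 and 2 would correlate across the groups under any numbering. The check therefore cannot decide which of them belong together. No label gives pairs, and the numbers were used as such only for the pair differences and the replicate block. Cd28 KO replicate 2 correlated better with WT replicate 1 (0.535) and WT replicate 2 with Cd28 KO replicate 1 (0.663), so the pairing of replicates 1 and 2 is assumed.

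A further marker list is not reported here. The members and lists were chosen with earlier results of these data known. Named genes are the members, other listed family genes, Cd28, the called genes and up to 3 of smallest p in each list and among the neighbours, and the 5 genes nearest to the members' profile. Cgas, Sting1, Parp14, Eif2s3y and the genes called in replicates 1 and 2 were added after their values were seen. Alternatives were another pseudocount and filters, TPM, median and quantile scaling, the replicate block, a term for replicate 3, replicates 1 and 2 alone and each library left out. The replicate block combined with TPM, median or quantile scaling was added after the data were seen.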

Additional observations from a re-analysis of the deposited data

How the results depend on the processing

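For the 7 Ifi200 genes, the count called stayed at 0 under 17 of 18 alternatives and was 1 (Ifi204) in replicates 1 and 2 alone. With the replicate block it was 0, and the log2 difference of Ifi204 was 0.46 as without it. Leaving out each library in turn gave 0 called members in every case. Over the pathway lists, 0 genes were called as reported, 1 with the replicate block, 1 with the replicate block on the TPM scale, 0 with the replicate block and median centring or quantile normalization, 3 with a term for replicate 3 and 8 in replicates 1 and 2 alone. The cause of these differences was not tested. Over all tested genes the count called was 2 higher and 0 lower as reported, 14 and 4 with the replicate block, 20 and 8 with the term for replicate 3 and 40 and 31 in replicates 1 and 2 alone.

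Ifi205 ranged from -0.026 (without Cd28 KO replicate 1, where it reversed) to 0.35 (without Cd28 KO replicate 3) when single libraries were left out, and was not tested at a minimum mean of 5 FPKM. No other member changed sign under the alternatives. The log2 differences ranged from 0.39 to 0.60 for Ifi204, 0.32 to 0.51 for Ifi211, 0.26 to 0.58 for Mndal, 0.22 to 0.66 for Ifi209, 0.16 to 0.44 for Ifi203 and 0.07 to 0.37 for Ifi207. The ratio of summed FPKM ranged from 1.23 to 1.37. The scalings moved the median of all genes by at most 0.06 on the log2 scale. The replicate block and the term for replicate 3 were fitted over 6 libraries, and replicates 1 and 2 alone over 4.

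Limits are the 3 libraries per group, the unknown read depth, the division of reads between similar copies, and the replicate 3 libraries that stood apart in both groups. Ifi205, near 1 FPKM, lies where a difference would be hard to see.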
